A study of Mus musculus with 4 samples.

Results

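The genes described here are 43 enzymes, transporters and kinases of glycolysis, the pentose phosphate pathway and the tricarboxylic acid (TCA) cycle, chosen by name and read in a table of 16142 genes, which lists all 43. The RNA-seq libraries came from mouse CD4+ T cells, 2 from WT and 2 from R111A cells, all stimulated through the T cell receptor. The R111A mutant is a form of the ribonuclease Regnase-1 in which the arginine that the protease MALT1 cleaves is replaced by alanine, so that it resists the degradation that follows T cell activation. The design asks how stimulated T cells that keep this form of Regnase-1 differ in gene expression from WT cells.

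WT cells came from the spleen of B6 mice, and R111A cells from Cd4CreERT2 LSL-R111A fl/fl mice on the same C57BL/6 background. In these mice a tamoxifen-inducible Cre driven by Cd4 removes a STOP cassette in front of a transgene in the Rosa26 locus, which then makes the R111A mutant together with EGFP from a CAG promoter, in addition to the endogenous Regnase-1. Tamoxifen was given intraperitoneally at 75 mg/kg for 5 days, and the labels name it in a passage that covers the mice of both groups. They do not say separately whether the WT mice of these samples received it. Mice of the study were 6 to 12 weeks old and of both sexes unless stated otherwise. CD4+ cells were purified with beads, then sorted by FACS, and received anti-CD3 (5 µg/mL) plus anti-CD28 (1 µg/mL) for 12 h. The study's general sorting method took GFP+ cells from reporter mice and divided CD4+ cells by CD25, but the description of the RNA samples names only CD4+ T cells, so whether these steps were applied to them is not stated there. Unstimulated cells were not analysed here. The labels number the samples of a group but do not say whether they came from separate animals, so p-values measure only the spread between these samples, which may be technical.

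Glycolysis splits glucose into pyruvate in the cytosol and yields ATP, the pentose phosphate pathway branches from it to make NADPH and ribose phosphate, and the TCA cycle oxidizes acetyl-CoA in mitochondria. Activated T cells are known for taking up more glucose and turning much of it into lactate even when oxygen is present, a state that the transcription factors MYC and HIF1 promote. The enzymes also supply precursors for nucleotides, lipids and amino acids, which a dividing T cell needs.

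Each value was an FPKM, fragments scaled to transcript length and to the size of the library, so levels of different genes can be compared on this scale. The FPKM values of WT replicates 1 and 2 summed to 801475 and 836143, and those of R111A replicates 1 and 2 to 1053551 and 1012215. Counts were not used here, and only the relative depth could be estimated, from the steps that single reads leave among low values. The depth of WT replicate 1 came to 1.02 times that of WT replicate 2, and to 1.05 and 1.18 times those of R111A replicates 1 and 2. Zc3h12a, the gene of Regnase-1 and of the transgene, stood at 17.0 and 15.7 FPKM in the WT libraries, against 196 and 131 FPKM in the R111A libraries, higher in the libraries labelled R111A. Its log2 fold change was 3.22 (standard error 0.19, adjusted p = 9.2e-06) in limma.

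Most of these metabolic genes were lower in R111A CD4+ T cells. Together they summed to 9122 and 8698 FPKM in WT replicates 1 and 2 and to 4600.1 and 4234 FPKM in R111A replicates 1 and 2. That was 1.14% and 1.04% of the FPKM sum of the WT libraries, against 0.437% and 0.418% in the R111A libraries. The mean of at least 1 FPKM that the test required was reached by 42 of the 43 genes, the exception being Aldoc. With limma and a threshold of 0.05 on the adjusted p, 31 of the 42 were lower in R111A and 2 were higher, beside 32.1% lower and 21.2% higher among all 9831 genes tested. With a 2-fold change required as well, 11 were lower and 1 was higher, beside 8.34% and 8.52% of all genes tested. Both R111A libraries lay below both WT libraries for 35 of the 42 genes and above them for 4, beside 46.3% and 32.0% of all genes tested, and the groups overlapped for 3. In bulk samples such as these, fewer cells of a type and less RNA per cell cannot be told apart.

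The median log2 fold change of the 42 genes was -0.71, and that of all genes tested was -0.12, a difference of -0.60. Fold changes were taken on the log2(FPKM + 1) scale, which understates the change of low genes. Rescaling each library to the same sum (TPM) moved the median of all genes to -0.42 and that of the 42 genes to -1.04, so that the difference between them was -0.63. On that scale 35 of these genes were lower and 2 higher, beside 51.8% and 13.6% of all genes, and 22 were lower by at least 2-fold, beside 17.8% of all genes. Leaving out a library moved the count of lower genes as well, to 22 without WT replicate 1, which left 1 WT library that was assumed to vary like the R111A group, and to between 26 and 34 without each of the others. The share of all genes called lower moved with it, to 19.9% and 19.7% without WT replicates 1 and 2 and to 37.6% and 38.6% without R111A replicates 1 and 2. Of the 31 genes called lower, 22 kept the call under all 14 alternative settings, and 9 lost it under at least 1 of them.

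**Figure D1:**
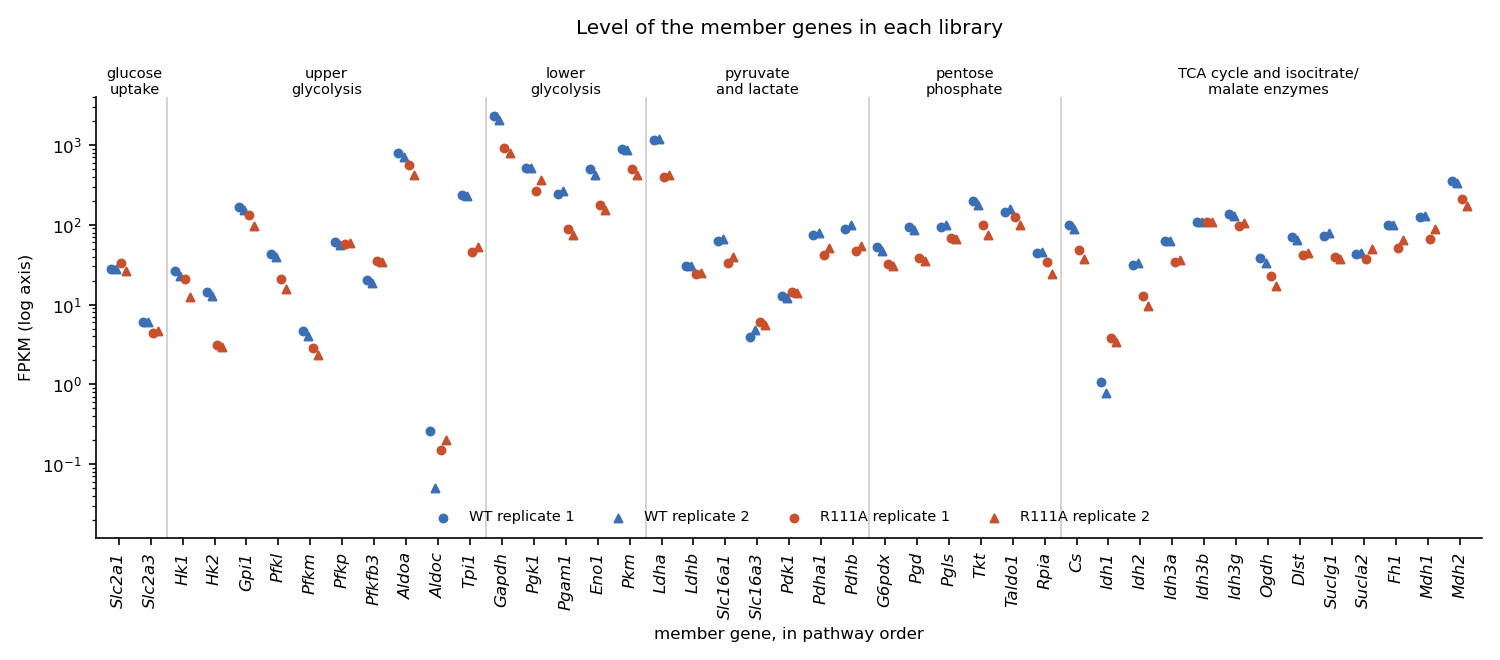
FPKM of the 43 genes in each library, on a log axis and in pathway order, with WT libraries in blue and R111A libraries in red, circles for replicate 1 and triangles for replicate 2. Both R111A points lie below both WT points for 35 of the 42 genes tested, Idh1, Pfkfb3, Slc16a3 and Pdk1 show the opposite, and Aldoc is near the floor in all 4 libraries.

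The size of the change varied with the level of the gene. Among the 15 genes whose mean reached 100 FPKM, 14 were called lower, 6 of them by at least 2-fold, and the exception was Idh3b. Of all genes tested, at any level, 32.1% were called lower and 8.34% by at least 2-fold. The share of all genes at that level is not given, so whether the count is particular to these genes cannot be told. Across the 42 genes, Spearman's rho between the log2 of the mean FPKM and the log2 fold change was -0.44. This describes genes of the same 4 libraries, which are not independent replicates, and the level enters both quantities. The replicates also differed from each other, since 27 of the 42 genes were lower in R111A replicate 2 than in R111A replicate 1, with a median ratio of 0.932 and a range of 0.593 to 1.38, while 48.4% of all genes tested were lower in R111A replicate 2. Within WT, 26 of the 42 genes were lower in replicate 2 than in replicate 1. The share of all genes is not given for WT, so that count describes these genes only.

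**Figure D2:**
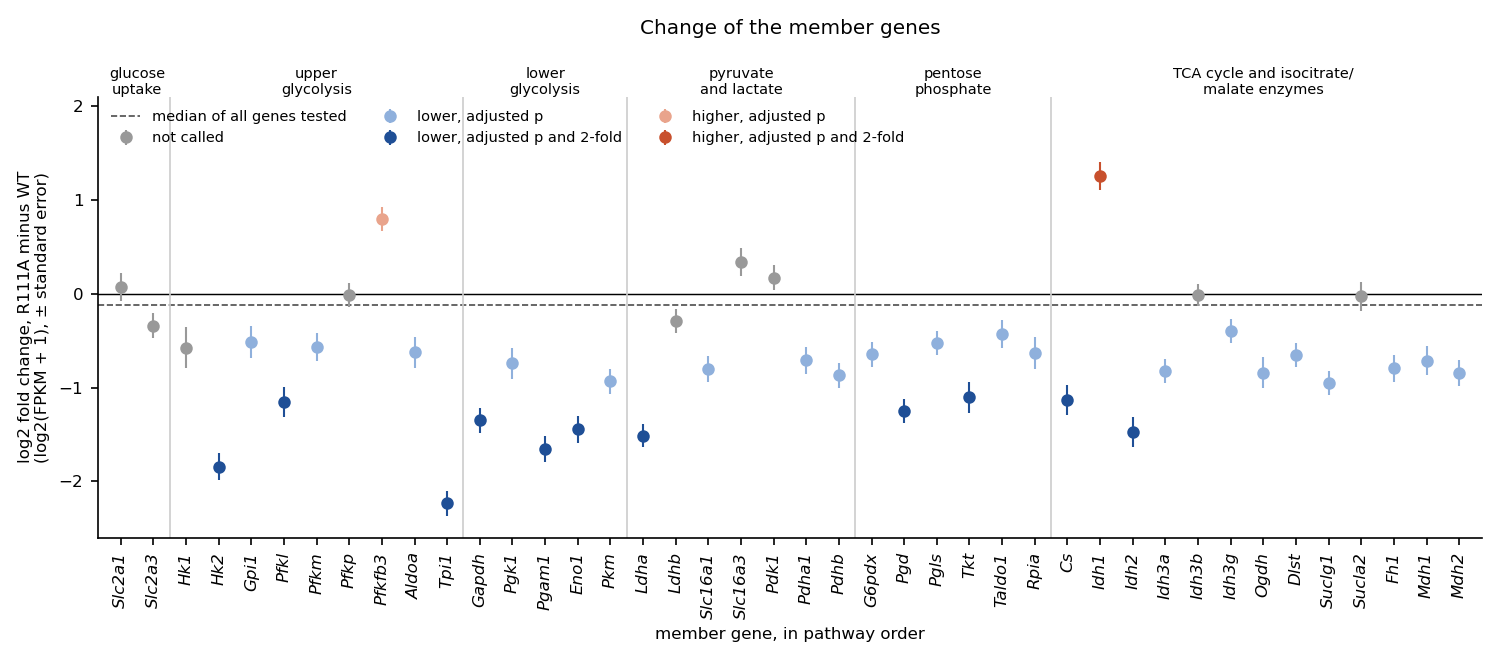
Log2 fold change (R111A minus WT, on log2(FPKM + 1)) of the 42 genes tested, in pathway order, with bars for the standard error from limma, blue for lower and red for higher calls (dark where also 2-fold) and grey for genes not called. The solid line marks no change and the dashed line the median of all genes tested at -0.12. Lower calls number 31, the higher ones are Pfkfb3 and Idh1, and 9 genes are not called.

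The labelled cell type was checked against its markers. All 8 T cell markers were present, with Cd3g the most abundant on average, and they summed to 2076 and 2060.3 FPKM in WT and 1728 and 1583 FPKM in R111A, with 4 called lower, 1 higher and 3 not called. With TPM 7 were called lower and 0 higher, and over all alternatives 2 to 7 were lower. Cd4 itself was at 158 and 131 FPKM in WT and 70.7 and 51.4 FPKM in R111A (log2 fold change -1.24, standard error 0.18, adjusted p = 5.7e-04). The calls of Cd3d, Lck and Cd5 were lost without WT replicate 1 (adjusted p = 0.29, 0.18 and 0.26) and without WT replicate 2 (0.20, 0.36 and 0.15), and those of Lck and Cd5 also without R111A replicate 2 (0.062 and 0.085). With TPM Cd3d lost its call (0.81), and Lck and Cd5, both close to the threshold at first, lost theirs under median-of-ratios (0.13 and 0.13) and quantile scaling (0.40 and 0.35) and in several further settings. Cd247, Cd28 and Cd3e, not called at first, were called lower with TPM (0.0023, 0.0034 and 0.030), Cd28 also with the replicate block (0.025) and without R111A replicate 2 (0.0032), and Cd247 and Cd3e without R111A replicate 1 (0.026 and 0.047). The 5 regulatory T cell markers summed to 387 and 404 FPKM in WT and 199 and 209 FPKM in R111A. Foxp3, Ctla4 and Tnfrsf18 were called lower, Ikzf2 and Il2ra, the latter the most abundant in R111A, were not called, and Foxp3, the defining transcription factor, was at 11.3 and 8.78 FPKM in WT and 2.86 and 1.86 FPKM in R111A. With TPM Ikzf2 (adjusted p = 0.021) and Il2ra (0.011) were called lower too, as was Ikzf2 without R111A replicate 2 (0.0041). The 2 CD8 T cell markers summed to 7.31 and 6.76 FPKM in WT and 3.88 and 4.46 FPKM in R111A, nearly all of it Cd8b1, which was called lower except without WT replicate 1 (adjusted p = 0.10), while Cd8a was at 0.20 FPKM or less.

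Most markers of cells other than T cells were low, and several were higher in R111A. The 7 B cell markers summed to 2.23 and 1.06 FPKM in WT and 5.32 and 4.60 FPKM in R111A, with Cd79a the most abundant on average, and Ms4a1 at 0.23 FPKM or less in every library. Cd79a was called higher, as was Cd79b, whose call was lost without WT replicate 2 (adjusted p = 0.38), R111A replicate 1 (0.11) or R111A replicate 2 (0.16), with TPM (0.070), with quantile normalization (0.13), with no filter (0.13) and with a pseudocount of 0.1 FPKM (0.055). The 11 myeloid markers summed to 11.5 and 8.87 FPKM in WT and 24.1 and 17.5 FPKM in R111A. Cd68, Lyz2 and Fcer1g were called higher, Tyrobp was not called except lower without WT replicate 2 (adjusted p = 8.3e-05) and with the replicate block (0.029), S100a9 was listed at 0, and Cebpb, on average the most abundant, was called lower where tested, except without WT replicate 1 (adjusted p = 0.053), without WT replicate 2 (0.088), with median-of-ratios factors (0.055) and with no filter (0.11). The 6 NK cell markers summed to 20.4 and 23.8 FPKM in WT and 12.3 and 9.77 FPKM in R111A, with Nkg7 the most abundant on average. The lower sum came from Nkg7 alone, which was called lower, while each of the other 5 had its R111A values above its WT values. Eomes was called higher, and Ncr1, Klrb1c, Klrk1 and Klra8 were too low to be tested at the filter of 1 FPKM. With no filter, 4 of the 6 NK cell markers were called higher and 1 lower. Of the 10 myeloid markers tested with no filter, 5 were called higher and 0 lower. Among all 14448 genes tested in that setting, 17.2% were called higher and 19.8% lower. That setting takes in markers near the floor, such as Klra8 at 0 FPKM in both WT libraries. The 6 erythroid markers summed to 0.66 and 0.7 FPKM in WT and 12.9 and 13.0 FPKM in R111A, mostly from Hba-a1, which was called higher, with Hba-a2, a near copy that may share its reads, and Hbb-bs listed at 0. The 4 platelet markers summed to 0.28 and 0.31 FPKM in WT and 9.99 and 10.3 FPKM in R111A, almost all of it Itga2b, which was called higher, with Pf4 and Gp9 listed at 0. The part of regulatory T cells and of these other cell types in the changes of the metabolic genes was not tested.

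The promoters of the 43 genes, called or not, were read for short motifs. RefSeq promoters (GRCm38.p6, the build of mm10), each 300 bases long from 250 bases before to 50 after an annotated start, were given for 41 of the 43 genes, all but Slc2a3 and Idh3a. The motifs searched on both strands were CACGTG, the E-box that MYC can bind as a dimer with MAX, and ACGTG, the core of the element that HIF1 can bind. Every CACGTG holds an ACGTG on each strand, so the motifs overlap. CACGTG was found in the promoters of 5 of the 41 genes (12.2%), Ldha, Slc16a1, Pfkfb3, Pfkm and Ogdh, against 12.5% of the tested genes with a promoter and 8.09% of all 27025 genes with 1. Counted by promoter, since a gene can have several, it was found in 11.5% of the 61 promoters of the 41 genes, 10.6% of the 10180 of tested genes and 7.15% of all 32851. ACGTG was found for 19 of the 41 genes (46.3%), against 30.7% of tested genes and 21.8% of all genes, and in 44.3% of the 61 promoters, against 26.8% and 19.6%. Promoters of the same gene can overlap and share a match, as those of Ogdh and Aldoa do. The counts by promoter are therefore not counts of separate sites. Among the genes called lower, CACGTG was found for 4 of 30 (13.3%), against 13.6% of all tested genes called lower, and ACGTG for 14 of 30 (46.7%), against 32.1%. A match describes the letters only and does not show that a factor binds there.

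Stretches of 180 bases that end 25 bases before the start, outside annotated exons, are printed for 4 genes that fell and for Pfkfb3, which rose, with every ACGTG of either strand in capitals (CACGT where it is read on the other strand). The Ldha (chr7:46845599-46845778, plus strand) and Pfkfb3 (chr2:11502116-11502295, minus strand) stretches lie inside the span annotated for the gene, before an inner start, and those of Hk2 (chr6:82774480-82774659, minus strand), Slc16a1 (chr3:104638459-104638638, plus strand) and Pgam1 (chr19:41911666-41911845, plus strand) lie before the whole gene.
Ldha: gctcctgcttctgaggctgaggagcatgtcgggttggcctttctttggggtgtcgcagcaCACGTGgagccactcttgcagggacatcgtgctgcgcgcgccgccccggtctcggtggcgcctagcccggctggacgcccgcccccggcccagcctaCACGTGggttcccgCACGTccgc
Slc16a1: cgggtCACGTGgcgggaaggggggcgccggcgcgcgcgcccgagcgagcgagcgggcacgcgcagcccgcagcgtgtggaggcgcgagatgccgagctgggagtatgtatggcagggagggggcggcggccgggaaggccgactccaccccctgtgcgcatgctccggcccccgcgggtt
Hk2: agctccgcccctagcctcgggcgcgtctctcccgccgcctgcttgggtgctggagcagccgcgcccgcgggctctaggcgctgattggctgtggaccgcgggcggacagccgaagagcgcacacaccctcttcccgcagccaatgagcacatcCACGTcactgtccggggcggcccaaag
Pgam1: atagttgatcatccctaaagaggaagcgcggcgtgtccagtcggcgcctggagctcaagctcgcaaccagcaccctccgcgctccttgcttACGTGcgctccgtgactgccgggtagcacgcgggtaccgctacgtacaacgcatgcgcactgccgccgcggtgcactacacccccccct
Pfkfb3: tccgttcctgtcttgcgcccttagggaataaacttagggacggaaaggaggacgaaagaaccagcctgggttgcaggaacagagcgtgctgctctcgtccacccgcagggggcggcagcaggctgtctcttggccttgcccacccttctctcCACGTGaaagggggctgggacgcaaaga
The Ldha stretch holds CACGTG 145 and 48 bases before the start, that of Slc16a1 at 200 bases, and that of Pfkfb3 at 53 bases, and of these genes Pfkfb3 rose while Ldha and Slc16a1 fell. The Hk2 and Pgam1 stretches hold ACGTG alone, 52 and 114 bases before the start. The promoters of Tpi1 and Idh1, the genes with the largest fall and the largest rise, hold neither motif. Of the other genes lower by at least 2-fold, Pfkl, Eno1, Pgd, Tkt, Cs and Idh2 hold neither motif. Hk2, Gapdh, Pgam1 and Ldha hold ACGTG in a promoter.

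Glucose enters T cells mainly through the facilitative transporters GLUT1 and GLUT3. Slc2a1, which encodes GLUT1, was at 28.1 and 27.9 FPKM in WT and 33.4 and 26.1 FPKM in R111A, so the groups overlapped and no change was called (log2 fold change 0.07, standard error 0.15, adjusted p = 0.71). Slc2a3, which encodes GLUT3, was at 5.98 and 6.0 FPKM in WT and 4.45 and 4.60 FPKM in R111A. Both R111A libraries were below both WT libraries, but the difference did not pass the test (log2 fold change -0.34, adjusted p = 0.064). It passed after rescaling to TPM (adjusted p = 0.0039), without R111A replicate 1 (0.041) and without R111A replicate 2 (0.029), with 0.0039 to 0.36 over all alternatives.

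Upper glycolysis, from glucose to triose phosphates, held 10 genes, of which 9 were tested, with 6 called lower, 1 higher and 2 not called, and a median log2 fold change of -0.57. For this count and those of the pathway sections below, the shares of all genes tested were 32.1% lower and 21.2% higher. Hexokinases phosphorylate glucose and trap it in the cell, and HK2 is the form that rises on T cell activation. Hk2 (NCBI gene 15277, chr6:82725025-82774454) was at 14.2 and 12.7 FPKM in WT and 3.13 and 2.90 FPKM in R111A (log2 fold change -1.84, standard error 0.14, adjusted p = 2.7e-05). The WT mean was 4.45 times the R111A mean, far more than replicates differed. Hk1, the broadly expressed form, was at 26.1 and 22.6 FPKM in WT and 20.7 and 12.3 FPKM in R111A. The 2 R111A libraries differed from each other by more than R111A replicate 1 did from WT, and the difference did not pass the test (log2 fold change -0.57, adjusted p = 0.056). Hk1 was called lower with the filter raised to 5 FPKM, with the replicate block, after rescaling to TPM and without R111A replicate 1 (adjusted p = 0.0024, against 0.0018 to 0.20 over the alternatives).

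Phosphofructokinase commits the sugar to glycolysis, and its 3 subunit genes differed. Pfkl, the liver-type subunit, was at 42.6 and 39.8 FPKM in WT and 20.6 and 15.6 FPKM in R111A and fell by 1.15 on the log2 scale (standard error 0.16, adjusted p = 5.0e-04). Pfkp, the platelet-type subunit, was at 61.3 and 55.2 FPKM in WT and 56.7 and 58.3 FPKM in R111A, values that overlapped (log2 fold change -0.02, standard error 0.13, adjusted p = 0.92). Pfkm, the muscle-type subunit, was low, at 4.62 and 4.0 FPKM in WT and 2.84 and 2.35 FPKM in R111A, and was called lower (log2 fold change -0.56, adjusted p = 0.013). Without WT replicate 1 its adjusted p was 0.15, the highest of the alternatives, the lowest being 7.9e-04. Pfkfb3 makes fructose 2,6-bisphosphate, the main activator of phosphofructokinase, and went the other way. It was at 20.3 and 18.4 FPKM in WT and 34.9 and 33.8 FPKM in R111A, 1.78 times higher in the R111A mean (log2 fold change 0.80, standard error 0.13, adjusted p = 0.0013). The rise of Pfkfb3 held under the other scalings, down to a log2 fold change of 0.48 (adjusted p = 0.014) with TPM.

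Aldolase and triose phosphate isomerase complete this section of the pathway. Aldoa was among the most abundant of the 43 genes, at 790.4 and 698 FPKM in WT and 558 and 415 FPKM in R111A. It fell (log2 fold change -0.62, adjusted p = 0.012), and its adjusted p was 0.057 without WT replicate 1 and 0.057 with no filter, against 1.3e-04 to 0.057 over the alternatives. Aldoc, the brain-type aldolase, was at 0.26 and 0.05 FPKM in WT and 0.15 and 0.2 FPKM in R111A and was not tested. Tpi1 (NCBI gene 21991, chr6:124810586-124814158), which interconverts the triose phosphates, had the largest fall of the 42 genes. It was at 238 and 232 FPKM in WT and 45.7 and 52.8 FPKM in R111A, so that the R111A mean was 21.0% of the WT mean (log2 fold change -2.24, standard error 0.13, adjusted p = 8.8e-06). Gpi1, which turns glucose 6-phosphate into fructose 6-phosphate, was called lower (log2 fold change -0.51, adjusted p = 0.029), but not without WT replicate 1 (adjusted p = 0.16) or WT replicate 2 (0.071), with no filter, or under median-of-ratios or quantile scaling (4.7e-04 to 0.20 over the alternatives).

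All 5 genes of lower glycolysis, from glyceraldehyde 3-phosphate to pyruvate, were called lower, at a median log2 fold change of -1.35. Each kept the call under every alternative. Gapdh, which oxidizes glyceraldehyde 3-phosphate, had the highest mean FPKM of the 43 genes, with ranks among all genes of 75 and 80 in WT and 117 and 123 in R111A. It was at 2279.9 and 2069.8 FPKM in WT and 914 and 794 FPKM in R111A (log2 fold change -1.35, standard error 0.13, adjusted p = 8.0e-05). Gapdh is often used as a reference gene in expression assays, and both R111A libraries lay far below both WT libraries. Pgk1, a kinase that yields ATP, was at 519.9 and 514 FPKM in WT and 263 and 363 FPKM in R111A (log2 fold change -0.74, standard error 0.16, adjusted p = 0.0053). Here R111A replicate 2 was the higher of its group, though still below both WT libraries. Pgam1, which moves the phosphate of 3-phosphoglycerate, was at 244 and 267 FPKM in WT and 87.7 and 73.4 FPKM in R111A (log2 fold change -1.66, standard error 0.14, adjusted p = 3.8e-05). Eno1, the main enolase, was at 497 and 415 FPKM in WT and 179 and 154 FPKM in R111A (log2 fold change -1.44, standard error 0.14, adjusted p = 8.7e-05). Its near copy Eno1b was listed at 0. For Pgam1 and Eno1 alike, the 2 R111A libraries lay close together and far below WT. Pkm, the pyruvate kinase of most tissues, was at 879 and 864 FPKM in WT and 501 and 417 FPKM in R111A (log2 fold change -0.93, standard error 0.13, adjusted p = 6.2e-04). Gapdh, Pgk1, Pgam1, Eno1, Tpi1, Ldha and Aldoa have pseudogenes or near copies in the mouse genome that may take or give reads, so their levels are uncertain to that extent.

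Pyruvate is reduced to lactate, exported, or taken into mitochondria, and 4 of the 7 genes of these steps were called lower and 3 were not called, with a median log2 fold change of -0.71. Ldha (NCBI gene 16828, chr7:46842274-46855627), the lactate dehydrogenase subunit that dominates in glycolytic cells, had the second highest mean FPKM of the 43 genes. It was at 1153 and 1189.8 FPKM in WT and 402 and 418 FPKM in R111A (log2 fold change -1.51, standard error 0.12, adjusted p = 2.9e-05). The replicates of each group lay within a few percent of each other, and the groups were far apart. Ldhb, the heart-type subunit, was at 30.6 and 30 FPKM in WT and 24.3 and 25.02 FPKM in R111A. The R111A libraries were lower without passing the test (log2 fold change -0.29, adjusted p = 0.089), except with TPM (adjusted p = 0.0028), without R111A replicate 1 (0.042) and without R111A replicate 2 (0.027), of a range from 0.0028 to 0.49.

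The lactate transporters MCT1 and MCT4 differed as well. Slc16a1, which encodes MCT1, was at 61.9 and 66.2 FPKM in WT and 33.4 and 39.5 FPKM in R111A and fell under every alternative (log2 fold change -0.80, standard error 0.14, adjusted p = 0.0016). Slc16a3, which encodes MCT4, was at 3.89 and 4.77 FPKM in WT and 6.0 and 5.49 FPKM in R111A. Here both R111A libraries were above both WT libraries, with an adjusted p of 0.084 that became 0.045 with median-of-ratios factors and ranged from 0.045 to 0.74 over the alternatives. Pdha1 and Pdhb, subunits of the pyruvate dehydrogenase that makes acetyl-CoA, fell with log2 fold changes of -0.71 (adjusted p = 0.0033) and -0.87 (adjusted p = 9.4e-04). Pdk1, a kinase that inhibits pyruvate dehydrogenase, was not called, with a log2 fold change of 0.17 (adjusted p = 0.31).

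All 6 genes of the pentose phosphate pathway were called lower, with a median log2 fold change of -0.64. Pgd, which makes NADPH and ribulose 5-phosphate in the oxidative branch, was at 92.8 and 85.2 FPKM in WT and 38.5 and 35.3 FPKM in R111A (log2 fold change -1.25, standard error 0.13, adjusted p = 1.1e-04). Tkt, the transketolase that links the branch back to glycolysis, was at 199 and 175 FPKM in WT and 99.8 and 74.4 FPKM in R111A (log2 fold change -1.11, standard error 0.16, adjusted p = 7.0e-04). For Pgd the R111A libraries were close to each other, whereas for Tkt R111A replicate 2 was clearly the lower. The other 4 had smaller changes, from -0.65 for G6pdx, the entry enzyme, through -0.63 for Rpia, the ribose phosphate isomerase, and -0.53 for Pgls, the lactonase, to -0.43 for Taldo1, the transaldolase. None of these 4 kept the call without WT replicate 1, where the adjusted p was 0.11 for G6pdx, 0.057 for Rpia, 0.082 for Pgls and 0.13 for Taldo1. Without WT replicate 2 it was 0.075 for Rpia, 0.16 for Pgls and 0.28 for Taldo1, and without R111A replicate 2 it was 0.059 for Taldo1. Rpia, Pgls and Taldo1 also lost the call with quantile normalization (0.051, 0.092 and 0.31), Rpia and Taldo1 with no filter (0.062 and 0.080), and Taldo1 with median-of-ratios factors (0.097). Over the alternatives the adjusted p ranged from 1.1e-04 to 0.11 for G6pdx, 2.8e-04 to 0.075 for Rpia, 1.4e-04 to 0.16 for Pgls and 4.9e-04 to 0.31 for Taldo1.

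Of the 13 genes of the TCA cycle and the related isocitrate and malate enzymes, 10 were called lower, 1 was called higher and 2 were not called, with a median log2 fold change of -0.79. Cs, the citrate synthase at the entry of the cycle, was at 99.99 and 88.6 FPKM in WT and 48.1 and 37.4 FPKM in R111A (log2 fold change -1.13, standard error 0.16, adjusted p = 4.9e-04). Idh2, the mitochondrial isocitrate dehydrogenase that makes NADPH, was at 31.5 and 33.0 FPKM in WT and 12.7 and 9.49 FPKM in R111A (log2 fold change -1.47, standard error 0.16, adjusted p = 1.4e-04). Both genes were lowest in R111A replicate 2 and far from WT in each R111A library. Idh1 (NCBI gene 15926, chr1:65158616-65186479), the cytosolic counterpart of Idh2, was the gene with the largest rise among the 42. It was at 1.08 and 0.78 FPKM in WT and 3.82 and 3.39 FPKM in R111A, so the R111A mean was 388% of a low WT mean (log2 fold change 1.26, standard error 0.15, adjusted p = 2.2e-04). The rise of Idh1 fell short of 2-fold with a pseudocount of 5 FPKM (log2 fold change 0.54) and was not tested with the filter raised to 5 FPKM.

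The NAD-linked isocitrate dehydrogenase has 3 kinds of subunit, and their genes differed. Idh3a, the catalytic subunit, fell (log2 fold change -0.82, adjusted p = 8.2e-04), and Idh3g was called lower (log2 fold change -0.40, adjusted p = 0.027). Idh3b was at 109 and 109 FPKM in WT and 109 and 108 FPKM in R111A, nearly the same level in all 4 libraries (log2 fold change -0.01, adjusted p = 0.94), although with TPM it was called lower (adjusted p = 0.038, of a range from 0.038 to 0.98). The call of Idh3g was lost without WT replicate 1 (adjusted p = 0.30) and WT replicate 2 (0.18), and under median-of-ratios and quantile scaling (6.1e-04 to 0.33 over the alternatives). Among the enzymes that follow, Ogdh and Dlst of the 2-oxoglutarate dehydrogenase fell, with log2 fold changes of -0.84 (adjusted p = 0.0034) and -0.65 (adjusted p = 0.0032), Dlst not without WT replicate 1 (adjusted p = 0.082, of 8.8e-05 to 0.082). Suclg1, the shared subunit of succinyl-CoA synthetase, fell (log2 fold change -0.95, adjusted p = 4.6e-04), while Sucla2, the ADP-specific subunit, was at 42.6 and 44.8 FPKM in WT and 37.3 and 49.2 FPKM in R111A, values that overlapped (log2 fold change -0.03, adjusted p = 0.90). Fh1, the fumarase, fell (log2 fold change -0.79, adjusted p = 0.0022). Mdh2, the mitochondrial malate dehydrogenase and the most abundant gene of the group, was at 357 and 333 FPKM in WT and 211 and 174 FPKM in R111A (log2 fold change -0.85, standard error 0.14, adjusted p = 0.0012). Mdh1, its cytosolic counterpart, was at 124 and 129 FPKM in WT and 66.6 and 87.9 FPKM in R111A (log2 fold change -0.72, standard error 0.16, adjusted p = 0.0049).

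The balance between isozymes was read as the ratio of their FPKM values within a library, which does not depend on how libraries are scaled. The smallest two-sided p that an exact permutation test allows for groups of 2 was 0.33, so these ratios describe the 4 libraries. Hk2 stood at 0.543 and 0.56 times Hk1 in WT and 0.151 and 0.236 times in R111A, a log2 difference of -1.55. Hk1 was thus the more abundant hexokinase in every library, and by more in R111A. Pfkp stood at 1.44 and 1.39 times Pfkl in WT and 2.75 and 3.74 times in R111A (1.18). Ldha was 37.7 and 39.7 times Ldhb in WT and 16.6 and 16.7 times in R111A, so Ldha dominated in all 4 libraries, and the log2 ratio of Ldhb to Ldha was higher by 1.22 in R111A. Slc16a1 was 15.9 and 13.9 times Slc16a3 in WT and 5.56 and 7.19 times in R111A (-1.23). Idh2 was 29.2 and 42.3 times Idh1 in WT and 3.32 and 2.80 times in R111A, the largest log2 difference of the 8 pairs at -3.53, or -2.73 with a pseudocount of 1 FPKM on both genes. The groups did not overlap for these 5 pairs. Slc2a1 was 4.70 and 4.64 times Slc2a3 in WT and 7.51 and 5.66 times in R111A, a smaller difference of 0.48 without overlap, which was 0.28 without R111A replicate 1. The ratios of Mdh2 to Mdh1 overlapped, at 2.88 and 2.59 in WT and 3.17 and 1.98 in R111A (-0.13, from -0.47 without R111A replicate 1 to 0.22 without R111A replicate 2). Aldoc was too low for its ratio to Aldoa to be read, and these ratios overlapped as well.

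**Figure D3:**
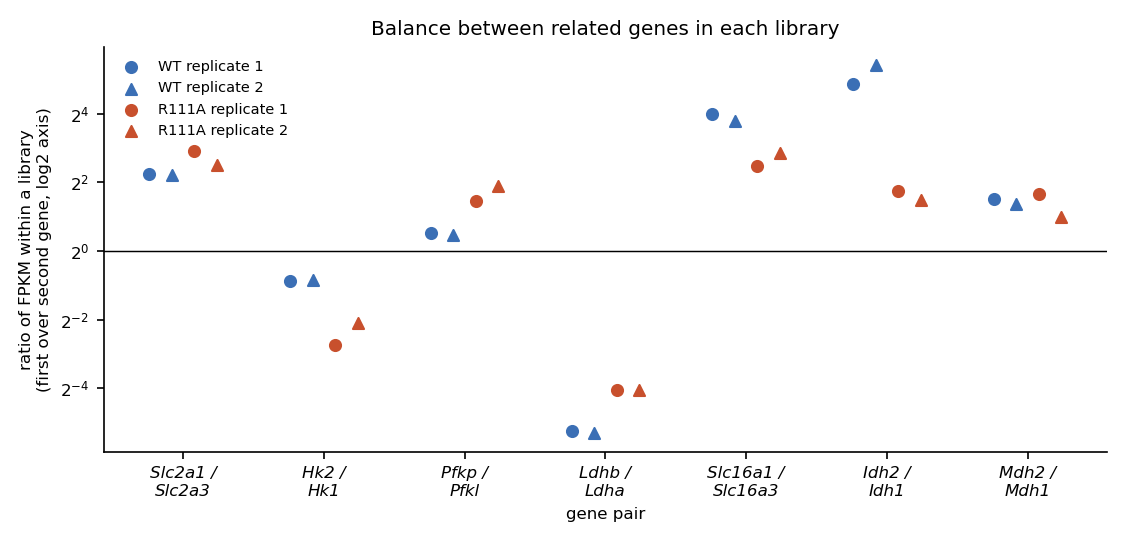
Ratio of the FPKM values of 7 isozyme pairs in each library on a log2 axis, with the line at equal levels, with WT in blue and R111A in red, circles for replicate 1 and triangles for replicate 2. The groups are apart for 6 pairs, by most for Idh2 over Idh1, and overlap for Mdh2 over Mdh1.

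Other genes of the same pathways were listed by their place in the pathway. Of 76 such genes, 69 were in the table and 48 were tested, with 24 called lower, 4 higher and 20 not called, beside 32.1% and 21.2% of all genes tested, and a median log2 fold change of -0.36. They were called lower for 11 of 14 TCA genes, 4 of 7 pentose phosphate genes, 4 of 12 pyruvate and lactate genes and 5 of 15 glycolysis genes. With a 2-fold change required as well, 13 were lower and 1 was higher, beside 8.34% and 8.52% of all genes tested. Slc2a6, a transporter of the GLUT family, is 1 of the 13 but was below the level set for naming, and is given after its values were seen, at 1.86 and 2.02 FPKM in WT and 0.35 and 0.47 FPKM in R111A (log2 fold change -1.06, adjusted p = 3.5e-04). Got1 and Got2, the cytosolic and mitochondrial aspartate aminotransferases of the malate-aspartate shuttle, both fell. Got1 was at 74.0 and 72.3 FPKM in WT and 18.2 and 15.3 FPKM in R111A (log2 fold change -2.07, adjusted p = 1.5e-05). Got2 was at 92.5 and 89.6 FPKM in WT and 49.6 and 36.5 FPKM in R111A (log2 fold change -1.08, adjusted p = 7.6e-04). Slc25a11, the oxoglutarate carrier of the same shuttle, was at 41.3 and 42.2 FPKM in WT and 14.4 and 14.2 FPKM in R111A (log2 fold change -1.48, adjusted p = 4.5e-05). Citrate leaves mitochondria through the carrier encoded by Slc25a1 and is cleaved to acetyl-CoA by the product of Acly. Slc25a1 was at 45.6 and 48.6 FPKM in WT and 11.9 and 11.4 FPKM in R111A (log2 fold change -1.92, adjusted p = 1.5e-05). Acly was at 88.8 and 82.1 FPKM in WT and 39.3 and 33.5 FPKM in R111A (log2 fold change -1.21, adjusted p = 1.7e-04). Within the cycle, Suclg2, the GDP-specific subunit of succinyl-CoA synthetase, was at 18.9 and 19.3 FPKM in WT and 4.90 and 5.49 FPKM in R111A (log2 fold change -1.70, adjusted p = 3.3e-05). Sdhd, a membrane anchor of succinate dehydrogenase, was at 139.5 and 136 FPKM in WT and 41.7 and 55.5 FPKM in R111A (log2 fold change -1.50, adjusted p = 1.1e-04). Each of these 7 genes was lower in both R111A libraries and kept its call under every alternative.

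Among the other pyruvate and lactate, pentose phosphate and glycolysis genes, those past both thresholds and the level set for naming were Dlat, Pdk3, Prps2, Pgm1 and Tigar. The pyruvate and lactate genes and the glycolysis genes were called lower about as often as all genes tested, also with TPM (6 of 12 and 7 of 15, beside 51.8%). Dlat, the acetyltransferase subunit of pyruvate dehydrogenase, was at 21.2 and 22.5 FPKM in WT and 8.57 and 8.73 FPKM in R111A (log2 fold change -1.24, adjusted p = 1.3e-04). Pdk3, a kinase that inhibits the complex, was at 26.9 and 23.8 FPKM in WT and 11.6 and 11.1 FPKM in R111A (log2 fold change -1.09, adjusted p = 3.1e-04). Dld, another subunit of the complex, and Pdk2, another of its inhibitors, were not called, with log2 fold changes of -0.08 (adjusted p = 0.68) and 0.60 (adjusted p = 0.12), values picked out after they were seen. Dld was called lower with TPM (adjusted p = 0.040), against 0.97 with median-of-ratios factors. Without R111A replicate 2 its log2 fold change was -0.28. Pdk2 was at 1.85 and 1.39 FPKM in WT and 4.72 and 1.73 FPKM in R111A. Only R111A replicate 1 lay above both WT libraries, so the groups overlapped. Over the alternatives the log2 fold change of Pdk2 ran from 0.06 to 1.13. It was called higher with the replicate block (adjusted p = 0.0014), which pairs samples by their number only. Prps2, which makes phosphoribosyl pyrophosphate for nucleotides, was at 27.9 and 29.8 FPKM in WT and 11.3 and 14.8 FPKM in R111A (log2 fold change -1.10, adjusted p = 6.1e-04). Pgm1, a phosphoglucomutase whose mouse symbol has been used for more than a single gene, was at 21.7 and 19.9 FPKM in WT and 10.5 and 8.34 FPKM in R111A (log2 fold change -1.07, adjusted p = 6.2e-04). Tigar, a phosphatase of fructose 2,6-bisphosphate, the product of Pfkfb3, was at 9.29 and 9.09 FPKM in WT and 3.81 and 4.15 FPKM in R111A (log2 fold change -1.03, adjusted p = 4.2e-04). The 4 genes called higher were at 8.90 FPKM or less and were picked out after their values were seen. Eno2, the neuronal enolase, was at 0.51 and 0.7 FPKM in WT and 3.32 and 3.45 FPKM in R111A (log2 fold change 1.45, adjusted p = 7.6e-05), opposite to Eno1. Pfkfb4, a relative of Pfkfb3, Pdp1, a phosphatase that activates pyruvate dehydrogenase, and Shpk, the sedoheptulose kinase, had log2 fold changes of 0.50 (adjusted p = 0.016), 0.71 (adjusted p = 0.0095) and 0.56 (adjusted p = 0.013). Pfkfb4 was not called without WT replicate 1 (adjusted p = 0.061), nor Pfkfb4 (0.20) or Shpk (0.14) without WT replicate 2. With TPM none of the 3 was called (0.15 for Pfkfb4, 0.060 for Pdp1 and 0.056 for Shpk), nor was Shpk with quantile normalization (0.067) or Pdp1 with no filter (0.052), and over the alternatives the adjusted p ran from 0.0085 to 0.20 for Pfkfb4, 2.2e-04 to 0.060 for Pdp1 and 0.0022 to 0.14 for Shpk. The count of higher genes was 2 without WT replicate 2 and 1 with TPM, beside 14.7% and 13.6% of all genes, and with TPM 32 were lower, beside 51.8%.

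Of 20 regulators of glucose metabolism, 18 were tested, with 10 called lower, 1 higher and 7 not called, beside 32.1% and 21.2% of all genes tested. Myc, which drives the growth metabolism of activated T cells, was at 228 and 204 FPKM in WT and 128 and 87.6 FPKM in R111A (log2 fold change -1.02, standard error 0.18, adjusted p = 0.0019). Hif1a, the oxygen-regulated subunit of HIF1, was at 95.1 and 101 FPKM in WT and 53.4 and 63.8 FPKM in R111A (log2 fold change -0.74, standard error 0.14, adjusted p = 0.0024). Both were lower in each R111A library, and both kept the call under every alternative. Egln1, a prolyl hydroxylase that marks HIF1A for degradation, was at 20.9 and 21.6 FPKM in WT and 11.6 and 8.74 FPKM in R111A (log2 fold change -1.01, adjusted p = 0.0010). Egln3, a further prolyl hydroxylase, picked out after its values were seen, was at 3.83 and 4.57 FPKM in WT and 0.99 and 1.23 FPKM in R111A (log2 fold change -1.30, adjusted p = 1.8e-04). Txnip, which restrains glucose uptake, was at 16.0 and 16.2 FPKM in WT and 74.0 and 63.4 FPKM in R111A (log2 fold change 2.02, standard error 0.14, adjusted p = 1.5e-05). It was the only regulator called higher, and it kept the call under every alternative. The count of lower regulators was 6 without WT replicate 1, 5 without WT replicate 2 and 12 with TPM, beside 19.9%, 19.7% and 51.8% of all genes. Whether any of these regulators has a part in the changes of the enzymes was not tested.

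**Figure D4:**
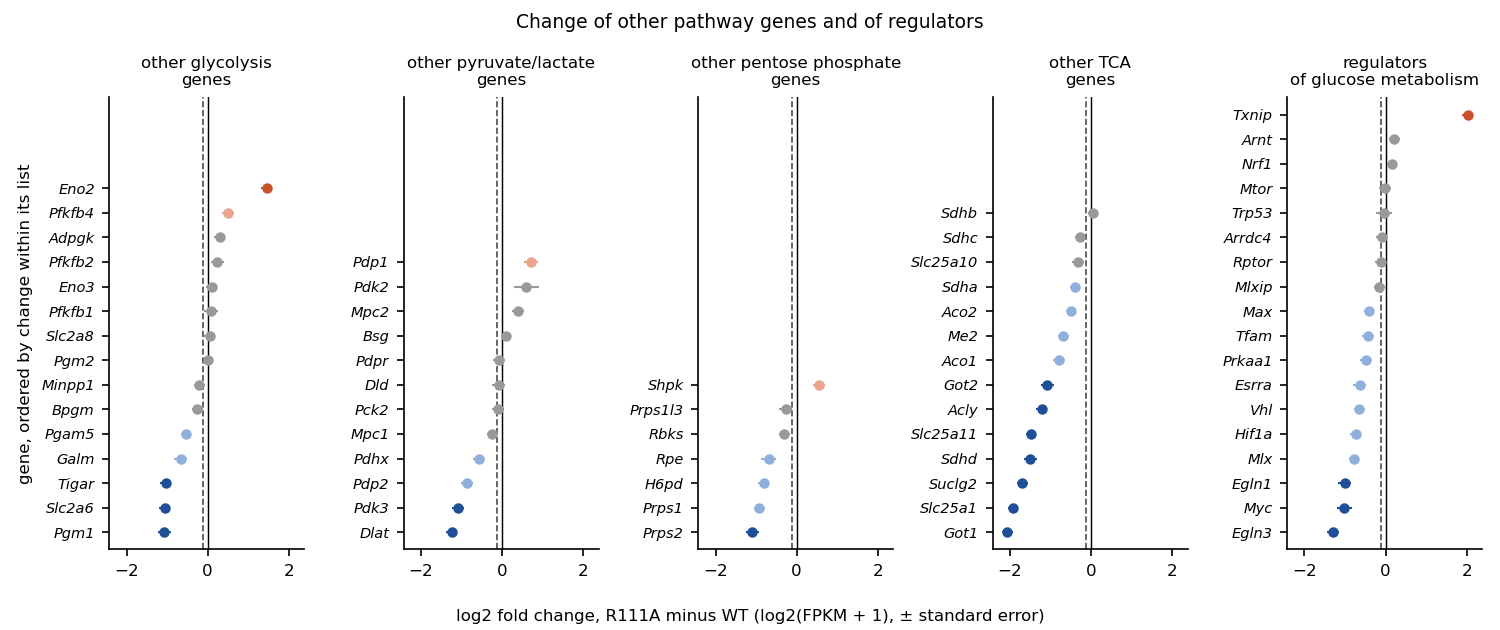
Log2 fold change (R111A minus WT) of the other pathway genes and the regulators that were tested, in 5 panels by list, with bars for the standard error, blue for lower and red for higher calls (dark where also 2-fold), grey for genes not called, and a dashed line at the median of all genes tested. Calls are mostly lower among the TCA genes, where 11 of 14 were lower, and Txnip stands highest among the regulators.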

How the data were processed

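RNA-seq of 4 samples of stimulated mouse CD4+ T cells, 2 WT and 2 R111A as the labels name them, was read from 1 table of FPKM values that the authors deposited. Per the submitters' processing notes, reads were processed with Bowtie2 2.4.4 and RSEM 1.2.28 on mm10. The authors tested counts with DESeq2. Counts were not used here, so that test was not repeated. FPKM sums differ between libraries, so scaling can move all genes together.

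Genes whose mean reached 1 FPKM (9831 of 16142) were tested as log2(FPKM + 1) in limma 3.58.1 (R 4.3.3), with lmFit and eBayes with a trend, R111A minus WT, no covariates, and Benjamini-Hochberg adjustment over all of them. A call needed an adjusted p under 0.05, and the stricter call a 2-fold change as well. The procedure was tested on simulated libraries of 9831 genes that had the same spread in both groups. With 0 genes changed, 0 were called. With 200 genes changed 1.5-fold, 63% were recovered, beside 18 false calls. At 2-fold 99% were recovered, beside 13 false calls, and at 4-fold 100%, beside 23. Tables and figures used python 3.11.15, numpy 2.4.6, pandas 2.3.3, scipy 1.17.1 and matplotlib 3.10.9. Isozyme ratios were tested by exact permutation. Alternatives were pseudocounts of 0.1 and 5 FPKM, no filter, a filter at 5 FPKM, TPM, median-of-ratios factors, quantile normalization, a replicate block, eBayes without a trend or robust, leaving out each library, a pseudocount of 1 FPKM in the ratios, and the FPKM share without the 50 most abundant other genes.

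Values in every library were given for members past both thresholds, the 5 most abundant, both genes of each isozyme pair and members called higher. Those of Pfkm, Idh3b and Sucla2 were given in addition, outside these rules. Other pathway genes and regulators were named when past both thresholds at a mean of at least 5 FPKM, with Myc, Hif1a and Txnip in any case. Further lists held markers of T cells, CD8 T cells, regulatory T cells, B cells, NK cells, myeloid and erythroid cells and platelets. The members and lists were chosen with earlier results of these data known. By gene ID, 16107 genes matched RefSeq (GRCm38.p6), which gave positions and promoters, and 35 did not.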

Additional observations from a re-analysis of the deposited data

How the results depend on the processing

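Of the 31 genes called lower, 22 kept the call under all 14 alternatives, and Pfkfb3 and Idh1 stayed higher wherever they were tested. No direction of a called gene reversed. The genes called higher numbered 1 when the filter was set to a mean of 5 FPKM, since Idh1 was then not tested, and with that filter, as with a pseudocount of 5 FPKM, 0 were higher by 2-fold, a larger pseudocount shrinking the change of a low gene. With TPM, 22 genes were lower by 2-fold and the median log2 fold change was -1.04, against -0.62 when median-of-ratios factors were used and -0.55 after quantile normalization. The median minus that of all genes was -0.71 with no filter, where more low genes were tested, and -0.51 with quantile normalization. Among the other pathway genes, 2 were called higher with a filter at 5 FPKM, where fewer genes were tested, and 1 with TPM. The share of the FPKM sum in R111A minus that in WT was -0.79 percentage points without the 50 most abundant other genes, against -0.66. The shares were then 1.70% and 1.59% in the WT libraries and 0.880% and 0.825% in the R111A libraries. Relative to the WT share the fall was thus smaller than with all genes. The log2 difference of Idh2 over Idh1 was -2.73 with a pseudocount of 1 FPKM. Leaving out each library in turn gave 22 to 34 genes lower, 8 to 13 lower by 2-fold, a median from -0.73 to -0.70, 2 to 6 other pathway genes higher and 5 to 11 regulators lower. Where no construction shows it, the cause was not tested. With the replicate number as a replicate block, 32 genes were lower and 2 higher, and Hk1 was the 1 gene of the 42 whose call changed. The deviations of the same-numbered libraries correlated across 9831 genes at 0.111, but with 2 pairs the samples share only a number. Absolute depth was not given, so how far it limits low genes such as Aldoc and Idh1 is unknown.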
